A study of Mus musculus with 2 samples.

Results

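The extracellular matrix of skeletal muscle was described through 41 genes in 2 long-read RNA libraries of mouse gastrocnemius, the large calf muscle. The genes were chosen by name, and 40 of them are among the 14451 annotated genes with a read in either library. Each gene's count is the sum of all reads assigned to it. They fall into 5 groups: 7 fibre-forming genes (fibrillar collagens, fibronectin and fibrillin), 14 genes of the basement membrane and the collagens that anchor it, 5 small leucine-rich proteoglycans, 5 tendon genes, and 10 genes of matrix assembly and turnover. Of the 41 genes, 39 had reads in both libraries, Postn had only 2 reads, both in replicate 1, and Tnxb had none.

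Both libraries form a single group of female B6CASTF1/J mice, an F1 hybrid strain, aged 18 to 20 months, with 2 µg of total RNA per library. The labels name no treatment and no engineered allele. The labels call the libraries biological replicates 1 and 2 but give the same donor record for both and do not say how many animals each came from. The comparison between them therefore measures how 2 libraries of 1 group differ, which may be technical, and not the effect of a condition. In whole muscle, fewer cells of a type and less RNA per cell cannot be told apart.

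Matrix in muscle is layered. A basement membrane of type IV collagen networks, laminins, nidogens and perlecan wraps each fibre and each capillary, and type VI collagen links it to the surrounding connective tissue. That tissue holds fibrils of type I and type III collagen, whose spacing and width are set by small proteoglycans such as decorin, and it merges at the muscle's ends into tendon, where the transcription factor scleraxis marks the tendon cells. Interstitial fibroblasts make most fibrillar collagen, whereas basement membrane proteins come from fibres, capillaries and fibroblasts alike.

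Replicate 1 held 1117891 reads of annotated endogenous genes and detected 13149 genes, and replicate 2 held 975696 reads and detected 12699. Levels are given as counts per 1000000 of these reads (CPM). Spike-in RNAs took 2.57% of the reads in replicate 1 and 0.748% in replicate 2 and were left out. Each long read was counted once whatever its length, so CPM is a share of reads and is not divided by transcript length. Ratios between the libraries followed transcript length, as described below, so a low CPM of a long gene need not mean few molecules. A count of 0 allows up to 2.68 CPM in replicate 1 and 3.07 CPM in replicate 2. Reads carried no molecular identifiers that the files show, so copies of 1 molecule cannot be told from separate molecules. Intervals here cover counting error only. Muscle fibre markers such as Ckm and Atp2a1 summed to 307730 and 343737 CPM, and none of 6 cartilage and bone markers had a read. Satellite cell markers had 59 and 34 reads, nearly all of Cdh15, with no read of Pax7 or Calcr.

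Gelsolin made up most of the reads of the 41 genes. The 41 genes together reached 3092 CPM in replicate 1 and 2935 CPM in replicate 2. Gsn held 2224 of 3456 of these reads in replicate 1 (64.4%, Wilson 95% interval 62.7 to 65.9) and 1578 of 2864 in replicate 2 (55.1%, 53.3 to 56.9). The other 40 genes summed to 1102 and 1318 CPM. Of all 41 genes, 25 had at least 20 reads over both libraries.

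**Figure D1:**
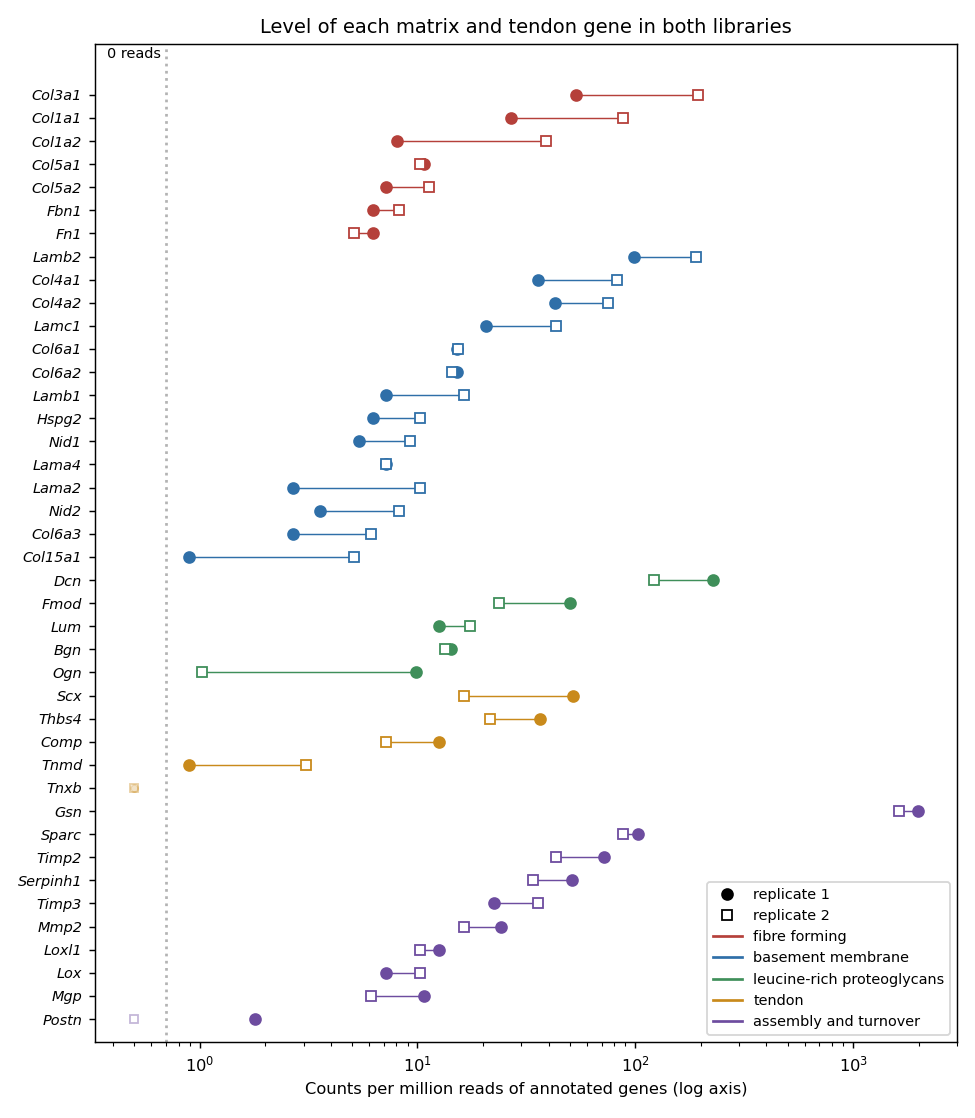
Level of each of the 41 genes in replicate 1 (filled circles) and replicate 2 (open squares), in CPM on a log axis, grouped by role. Points left of the dotted line stand for 0 reads. Gsn lies at 1989 and 1617 CPM, apart from every other gene, and the 3 highest fibre-forming genes all lie further right in replicate 2.

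Summed levels of the groups differed between the libraries in opposite directions. Fibre-forming genes summed to 119 CPM in replicate 1 and 356 in replicate 2 (mean 237 ± 167 SD, n = 2), a ratio of 2.99. Basement membrane genes summed to 264 and 493 CPM (378 ± 162). Proteoglycans went the other way, with 313 CPM in replicate 1 and 177 in replicate 2, as did tendon genes, with 102 and 48.2 CPM. Assembly and turnover genes summed to 2294 and 1861 CPM, or 304 and 244 CPM without Gsn. All tested fibre-forming and basement membrane genes have annotated transcripts of at least 4000 bases. All tested proteoglycan and tendon genes have shorter ones, so group and transcript length cannot be told apart in these sums.

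Each gene's 2 counts were set against the split expected from library size with a 2-sided exact binomial test, adjusted by Benjamini-Hochberg over the 8394 genes with at least 10 reads. At an adjusted p below 0.05, this test found 7 of the 36 matrix genes tested to be higher in replicate 2 and 3 higher in replicate 1, and left 26 without a call. The background over all genes tested was 11.7% with a call, made up of 7.06% in the direction of replicate 2 and 4.61% in that of replicate 1. An alternative test allowed for scatter beyond counting error (edgeR's exact test, common dispersion 0.0622). That dispersion was estimated from the same libraries taken as a single group, so the differences under test also set the scatter allowed for. It called none of the 36 and 0.286% of all genes, 0.191% toward replicate 2 and 0.0953% toward replicate 1. At an unadjusted p below 0.05 in the binomial test, 16 of the 36 passed, against 22.5% of all genes tested. In mm10, the genes called higher in replicate 2 lie at chr11:94936224-94953042 (Col1a1), chr6:4504814-4541544 (Col1a2), chr1:45311538-45349706 (Col3a1), chr8:11198423-11312826 (Col4a1), chr8:11312805-11449287 (Col4a2), chr9:108479736-108490530 (Lamb2) and chr1:153218922-153332786 (Lamc1). Those called higher in replicate 1 lie at chr10:97479609-97518143 (Dcn), chr15:76457452-76459458 (Scx) and chr2:35256380-35307892 (Gsn). The calls below exceed counting error. Whether they exceed the general scatter between libraries cannot be decided here, because the dispersion came from the same libraries that were compared.

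**Figure D2:**
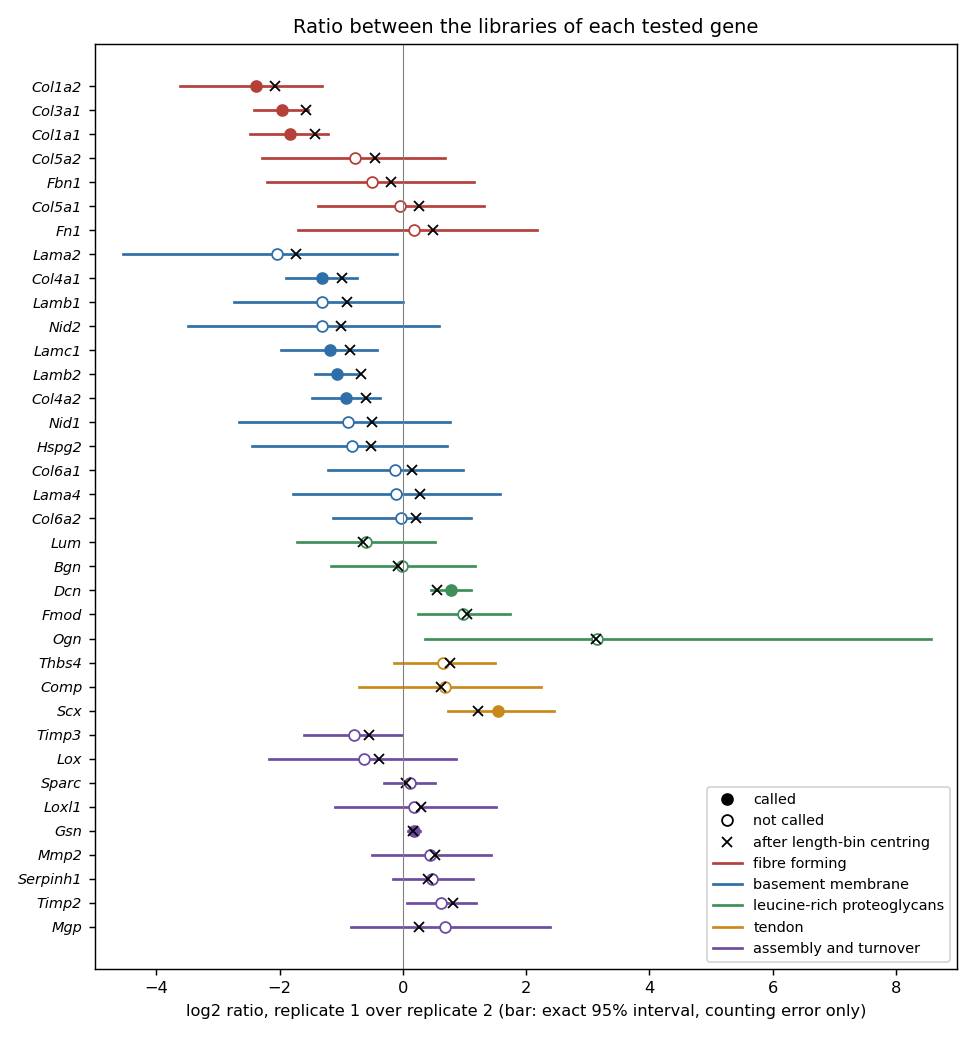
Log2 ratio of replicate 1 over replicate 2 for the 36 tested genes, with exact 95% intervals for counting error. Filled points were called, open points were not, and crosses give the ratio after subtracting the median of genes of similar length. All filled points of the fibre-forming and basement membrane groups lie left of 0, and those of Dcn, Scx and Gsn lie right of 0.

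Fibrillar collagens of types I and III were higher in replicate 2. Col3a1, which encodes the single chain of type III collagen, had 60 reads in replicate 1 and 189 in replicate 2 (CPM 53.7 and 194). It was 3.91-fold higher in replicate 2 (95% interval 2.91 to 5.32; binomial adjusted p = 1.75e-21). Col1a1 and Col1a2 encode both chains of type I collagen, the main fibril protein of tendon and muscle connective tissue. Col1a1 had 30 and 86 reads (26.8 and 88.1 CPM) and was 3.56-fold higher in replicate 2 (2.32 to 5.58). Col1a2 had 9 and 38 reads (8.05 and 38.9 CPM) and was 5.24-fold higher in replicate 2 (2.49 to 12.3). With the common dispersion added, the adjusted p of these 3 genes lay between 0.137 and 0.470.

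Type III collagen had more reads than type I. Col3a1 had 2.00 reads for each Col1a1 read in replicate 1 (exact 95% interval 1.27 to 3.21) and 2.20 in replicate 2 (1.69 to 2.87), on transcripts of 5564 and 5930 bases. Col1a1 had 3.33 reads per Col1a2 read in replicate 1 (1.54 to 7.98) and 2.26 in replicate 2 (1.53 to 3.41). For both pairs the intervals of the libraries overlapped. Type I collagen protein joins a pair of alpha 1 chains with a single alpha 2 chain.

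The minor fibrillar collagens and the fibre glycoproteins were low. Col5a1, a chain of the type V collagen that starts fibrils, had 12 and 10 reads (10.7 and 10.2 CPM). Col5a2 had 8 and 11 reads, fibronectin (Fn1) 7 and 5, and fibrillin-1 (Fbn1), the backbone of elastic microfibrils, 7 and 8. Their annotated transcripts are long, with 8406 bases for Col5a1, 6625 for Col5a2, 8315 for Fn1 and 11971 for Fbn1. None of these 4 was called, and with so few reads their folds carry wide intervals, for Col5a1 a fold of replicate 2 over replicate 1 between 0.400 and 2.61. The median log2 ratio of the 7 fibre-forming genes was -0.77, against -0.01 over all genes tested and -0.31 over those of at least 4000 bases.

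The promoters of Col1a2 and Col3a1 are shown because both genes were called in the same direction. RefSeq windows on GRCm38.p6 (mm10), running from 250 bases before to 50 bases after the gene start, were available for 27 of the 41 genes in 31 windows. Capitals mark matches, on either strand, to 3 short motifs. The CCAAT box is CCAAT and reads ATTGG on the other strand. The GC box is GGGCGG and reads CCGCCC there. The TATA box is TATAAA and reads TTTATA there. Each is 5′ to 3′ along the gene.
Col1a2, chr6:4505368-4505667, plus strand: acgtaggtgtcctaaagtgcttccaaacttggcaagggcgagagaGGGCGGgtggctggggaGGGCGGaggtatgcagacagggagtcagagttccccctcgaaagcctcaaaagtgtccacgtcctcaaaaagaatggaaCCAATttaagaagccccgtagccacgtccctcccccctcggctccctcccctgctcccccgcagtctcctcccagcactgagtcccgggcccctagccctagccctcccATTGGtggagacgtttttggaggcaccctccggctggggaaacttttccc
Col3a1, chr1:45311288-45311587, plus strand: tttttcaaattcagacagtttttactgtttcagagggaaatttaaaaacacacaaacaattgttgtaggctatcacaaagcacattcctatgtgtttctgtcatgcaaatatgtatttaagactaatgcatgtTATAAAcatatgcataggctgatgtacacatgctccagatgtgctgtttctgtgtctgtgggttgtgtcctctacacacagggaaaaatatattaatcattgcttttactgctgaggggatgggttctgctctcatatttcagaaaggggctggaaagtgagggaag

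The windows differ in composition and motifs. Col1a2's window was 61% G or C and held 2 CCAAT and 2 GGGCGG matches. Col3a1's was 37.7% G or C and held 1 TATAAA match and neither of the other motifs. Of all 32851 windows of this length, 37.4% held CCAAT, 35.7% GGGCGG and 13.6% TATAAA. Among the 31 windows of the matrix genes, 10 held CCAAT, 19 GGGCGG and 3 TATAAA. These are matches of letters in a window, not binding sites.

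Basement membrane genes were led by a laminin and by type IV collagen, and all 12 tested genes had point values on the replicate 2 side. These values use the TMM library sizes of the test, whereas CPM uses plain totals. For Col6a1, Col6a2 and Lama4 the folds were only 1.09, 1.02 and 1.09, and with total counts Col6a2 changed sides. Lamb2, the beta 2 laminin chain concentrated at the neuromuscular synapse, had 110 reads in replicate 1 and 186 in replicate 2 (CPM 98.4 and 191). It was 2.10-fold higher in replicate 2 (1.65 to 2.68; binomial adjusted p = 1.97e-08). Lamc1, the gamma 1 chain shared by most laminins, had 23 and 42 reads (20.6 and 43.0 CPM) and was 2.27-fold higher in replicate 2 (1.33 to 3.95). Lamb1, the other main beta chain, had 8 and 16 reads and was not called. When only Known, NIC and NNC reads were counted (transcript classes explained under processing), Lamb1 was called higher in replicate 2. Its log2 ratio was then -3.001 in place of -1.31 (binomial adjusted p = 0.0139). That ratio rests on 2 such reads in replicate 1, where the other 6 of 8 were incomplete splice matches (ISM). In replicate 2, 12 of 16 reads were Known and 3 were ISM. Lamb2 outnumbered Lamb1 by 13.8 to 1 in replicate 1 (6.74 to 32.6) and 11.6 to 1 in replicate 2 (6.97 to 20.8). These intervals overlapped.

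Laminin alpha chains were rarely read. Lama2, the muscle laminin alpha chain whose loss causes congenital muscular dystrophy, had 3 and 10 reads (2.68 and 10.2 CPM), and Lama4, of vessel basement membranes, had 8 and 7. Neither was called. Lama2's annotated transcript has 9614 bases and Lama4's 6046.

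Type IV collagen forms the network of the basement membrane. Col4a1 had 40 reads in replicate 1 and 80 in replicate 2 (CPM 35.8 and 82.0) and was 2.48-fold higher in replicate 2 (1.68 to 3.72; binomial adjusted p = 3.71e-05). Col4a2 had 48 and 73 reads (42.9 and 74.8 CPM) and was 1.89-fold higher there (1.29 to 2.78; adjusted p = 0.00866). The pair stayed close to 1 to 1, at 0.833 Col4a1 reads per Col4a2 read in replicate 1 (0.534 to 1.29) and 1.10 in replicate 2 (0.788 to 1.53). In the protein, a pair of alpha 1 chains joins a single alpha 2 chain.

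The Col4a1 and Col4a2 genes lie head to head and share a promoter region, so the window of Col4a2 is shown. It holds both starts, Col4a2 at base 11312805 of chromosome 8 and Col4a1 at base 11312826 on the other strand. The 2 RefSeq windows share 78 bases, and the transcripts overlap by 22 bases at their 5′ ends.
Col4a2, chr8:11312555-11312854, plus strand: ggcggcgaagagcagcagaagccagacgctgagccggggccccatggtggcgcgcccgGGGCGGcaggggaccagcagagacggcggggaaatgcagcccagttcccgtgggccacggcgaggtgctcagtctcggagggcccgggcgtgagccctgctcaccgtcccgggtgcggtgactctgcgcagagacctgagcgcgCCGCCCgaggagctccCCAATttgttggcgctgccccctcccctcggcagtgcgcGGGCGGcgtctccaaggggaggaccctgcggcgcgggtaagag

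This window was 73.7% G or C and held 1 CCAAT match and 3 GGGCGG matches. Col4a2 also had 19 of its 73 reads in replicate 2 in the Genomic class, whose models match no annotated splice chain. It remained called when only reads of the Known, NIC and NNC classes were counted, although NIC and NNC models can still lack part of a chain. On those reads Lamc1 lost its call (binomial adjusted p = 0.162), and Col1a2 had too few of them to be tested.

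Type VI collagen and the remaining basement membrane genes were low. Col6a1 had 17 and 15 reads (15.2 and 15.4 CPM) and Col6a2 had 17 and 14 (15.2 and 14.3 CPM). Col6a3, with an annotated transcript of 10106 bases, had 3 and 6. The nidogens, which bridge laminin and type IV collagen, had 6 and 9 reads for Nid1 and 4 and 8 for Nid2. Perlecan (Hspg2) had 7 and 10 reads, and Col15a1, which secures fibres and capillaries, had 1 and 5. None of the 5 tested was called, which at these counts does not show that they were equal: Nid2's fold toward replicate 2 was 2.48 (0.665 to 11.3) and Nid1's 1.86 (0.592 to 6.35). Col6a3 and Col15a1 had too few reads to be tested. Nid2 overlaps Rtraf (218 and 108 reads) on the other strand. The median log2 ratio of the 12 tested basement membrane genes was -0.99, against -0.31 over all tested genes of at least 4000 bases.

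Proteoglycans were led by decorin, which binds and spaces collagen fibrils. Dcn counts were 253 in replicate 1 and 119 in replicate 2 (226 and 122 CPM), and the gene was 1.71-fold higher in replicate 1 (1.37 to 2.15; binomial adjusted p = 2.40e-05). This is the opposite direction to the called fibrillar collagens. Fibromodulin (Fmod), a proteoglycan abundant in tendon, had 56 and 23 reads (50.1 and 23.6 CPM), 1.96-fold with an interval of 1.19 to 3.34. It missed the threshold (binomial adjusted p = 0.0529), and passed it with total counts as library size, with length centring on the longest coding transcript, or with at least 50 reads required (adjusted p = 0.0224, 0.0401 and 0.0225). It missed it with centring on the longest transcript of any type (0.0511).

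Lumican, biglycan and osteoglycin completed the family. Lum, also a fibril regulator, had 14 and 17 reads (12.5 and 17.4 CPM), and Bgn, the closest relative of decorin, had 16 and 13 (14.3 and 13.3 CPM). Ogn had 11 reads in replicate 1 and 1 in replicate 2, with a fold of 8.87 and an interval from 1.29 to 382. None of the 3 was called, and Ogn overlaps Cenpp (2 and 9 reads) on the other strand. Decorin had 15.8 reads per biglycan read in replicate 1 (9.55 to 28.1) and 9.15 in replicate 2 (5.15 to 17.7). The median log2 ratio of the 5 proteoglycans was 0.78, against 0.11 over all tested genes under 4000 bases.

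Tendon genes were present at low levels and lay on the replicate 1 side. Scx, which encodes scleraxis, had 58 reads in replicate 1 and 16 in replicate 2 (CPM 51.9 and 16.4) and was 2.92-fold higher in replicate 1 (1.66 to 5.45; binomial adjusted p = 0.00103). Scx lies inside Bop1 on the other strand, which had 39 and 37 reads. Thbs4, a thrombospondin of tendon and of the muscle-tendon junction, had 41 and 21 reads (36.7 and 21.5 CPM). Comp, a related cartilage and tendon protein, had 14 and 7 (12.5 and 7.17 CPM). Neither was called. Tnmd, the membrane protein of mature tendon cells, had 1 and 3 reads and was not tested.

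Tnxb, which encodes the collagen-binding tenascin-X on an annotated transcript of 12209 bases, had no reads. Of 9 tenocyte markers, 5 of them members described here, 7 had reads in both libraries and Mkx and Kera had none. Together these markers came to 169 CPM in replicate 1 and to 84.0 CPM in replicate 2. Fibroblast markers, all 9 with reads in both libraries and dominated by Gpx3 with 1038 and 264 reads, summed to 1353 and 652 CPM, although the same list holds Col1a1, which was higher in replicate 2. Pericyte and smooth muscle markers went the other way, at 174 and 262 CPM, with Rgs5 2.06-fold higher in replicate 2 (1.60 to 2.65). Without Rgs5 the list came to 79.6 and 84.0 CPM, and without Gpx3 the fibroblast list came to 425 and 381 CPM. Schwann cell markers (3 of 5 with reads in both) summed to 63.5 and 24.6 CPM, and macrophage markers (4 of 6, with Cd68 at 0) to 56.4 and 24.6. Without Mbp (46 and 11 reads) the Schwann cell list came to 22.4 and 13.3 CPM, and without Lyz2 (43 and 7 reads) the macrophage list came to 17.9 and 17.4 CPM. Endothelial markers (8 of 8) summed to 127 and 85.1 CPM, adipocyte markers (5 of 5) to 118 and 73.8, and muscle-tendon junction markers (4 of 4) to 56.4 and 46.1. The part of any of these cells in the differences among matrix genes was not tested.

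Gelsolin was the most abundant gene of the 41 by a wide margin. Gsn encodes an actin-severing protein that exists as a form within cells and a secreted form that circulates in plasma. It had 2224 reads in replicate 1 and 1578 in replicate 2 (CPM 1989 and 1617, mean 1803 ± 263 SD, n = 2), rank 36 of 14451 genes. It was 1.14-fold higher in replicate 1 (1.06 to 1.21; binomial adjusted p = 0.00197), the smallest fold of the 10 calls.

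Nearly all gelsolin reads were of the longer coding form. The intron chain of Gsn-201, with 17 exons, held 2094 of 2130 spliced reads in replicate 1 (98.3%, Wilson 95% interval 97.7 to 98.8) and 1424 of 1460 in replicate 2 (97.5%, 96.6 to 98.2). Gsn-201 starts at the internal first exon on chromosome 2, bases 35282380 to 35282601, which was used by 2123 of 2127 reads in replicate 1 and 1449 of 1456 in replicate 2. The distal first exon at bases 35256380 to 35256473, that of Gsn-205, was used by 4 and 7 reads, or 0.307% of reads over both libraries. Gsn-201 codes for 780 codons and Gsn-205 for 731. The 2193 coding bases of Gsn-205 are all in Gsn-201, which adds 147 coding bases at its start; the plasma form of gelsolin is the one known to carry an added signal peptide.

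The added coding bases are shown because they separate the form that was read from the one that was nearly absent. Capitals mark the 147 bases found only in Gsn-201, from its start codon, and the 3 lower-case bases are the start codon of Gsn-205. They run across 1 intron from base 35282464 to base 35283913 (mm10), and come from the GENCODE M21 transcript.
Gsn-201 coding start: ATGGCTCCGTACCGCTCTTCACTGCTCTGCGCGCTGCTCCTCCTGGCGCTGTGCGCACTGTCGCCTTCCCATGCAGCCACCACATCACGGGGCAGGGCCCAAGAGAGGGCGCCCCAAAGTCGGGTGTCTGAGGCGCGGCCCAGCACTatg

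The promoter window of the internal start is shown beside it, with motifs in capitals as above.
Gsn internal start, chr2:35282130-35282429, plus strand: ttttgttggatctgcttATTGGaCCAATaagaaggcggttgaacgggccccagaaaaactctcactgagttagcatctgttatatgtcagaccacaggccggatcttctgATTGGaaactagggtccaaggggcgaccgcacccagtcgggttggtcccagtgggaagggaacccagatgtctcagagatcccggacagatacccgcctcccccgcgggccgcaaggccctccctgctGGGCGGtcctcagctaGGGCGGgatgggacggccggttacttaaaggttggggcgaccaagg

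It held 3 CCAAT and 2 GGGCGG matches, whereas the window of the distal start held no CCAAT match and 3 GGGCGG matches. The other annotated coding exons of Gsn that were nearly unused belong to minor transcripts: 2 overlapping exons of 71 and 62 bases just after the internal start were in 1 and 0 of 3587 spanning reads.

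**Figure D3:**
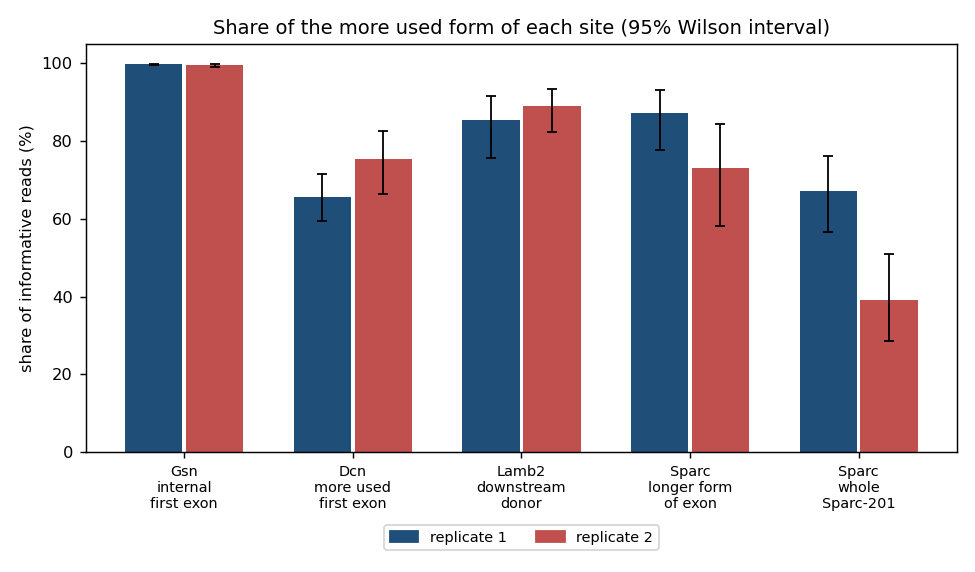
Share of informative reads that used the more common form, in percent, with Wilson 95% intervals, for the first exon of Gsn and Dcn, the exon 1 donor of Lamb2, the 60-base form of an exon of Sparc, and the whole Sparc-201 chain. Bars for replicate 1 and replicate 2 have overlapping intervals for Gsn, Dcn, Lamb2 and the Sparc exon, and stand apart for the whole Sparc-201 chain, at 67.1% and 39.1%.

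Sparc, a collagen-binding glycoprotein that assists collagen deposition, was the next most abundant assembly gene. It had 115 and 86 reads (103 and 88.1 CPM) and was not called. Its leading chain, Sparc-201, held 57 of 85 spliced reads in replicate 1 (67.1%, 56.5 to 76.1) and 27 of 69 in replicate 2 (39.1%, 28.5 to 50.9). Fisher's exact test gave p = 6.43e-04, which did not pass after Benjamini-Hochberg adjustment over 3521 genes (adjusted p = 0.0926). In the same test 0.454% of genes were called and none of the 8 matrix genes with enough reads. Sparc-205, a short annotated transcript of 5 exons, held 13 and 25 of these reads, and Sparc-202 held 7 and 11.

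Sparc-202 differs from Sparc-201 in an exon with adjacent acceptor sites. The exon lies on the minus strand of chromosome 11, bases 55407220 to 55407279 in its 60-base form, and its 57-base form starts 3 bases later. The exon is shown with those 3 bases in capitals.
Sparc exon with adjacent acceptors: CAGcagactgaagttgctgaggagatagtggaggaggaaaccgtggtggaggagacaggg

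Of 112 reads that spanned it, 92 had the longer form and 20 the shorter. By library the longer form had 62 of 71 reads and 30 of 41. A 54-base form annotated in another transcript had no read. The forms differ by 3 bases, which keeps the reading frame.

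The remaining assembly genes were collagen chaperones and cross-linkers. Serpinh1, the collagen chaperone HSP47, had 57 and 33 reads (51.0 and 33.8 CPM). Lox and Loxl1, which cross-link collagen and elastin, had 8 and 10 and 14 and 10 reads. Mgp, an inhibitor of calcification, had 12 and 6 reads. None was called, and Postn, a matricellular protein induced in injury, had only the 2 reads given above. Serpinh1 was read mostly as its leading transcript, in 41 of 47 and 25 of 29 spliced reads.

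Of the protease Mmp2 and its inhibitors Timp2 and Timp3, Timp2 had the most reads in both libraries. Timp2, an inhibitor of matrix metalloproteinases, had 80 and 42 reads (71.6 and 43.0 CPM), 1.54-fold with an interval of 1.04 to 2.29 (binomial adjusted p = 0.156). Timp3, an inhibitor held in the matrix, had 25 and 35 (22.4 and 35.9 CPM), and Mmp2, the gelatinase that both inhibit, had 27 and 16 (24.2 and 16.4 CPM). None was called. Timp2 passed with length centring on the longest coding transcript (binomial adjusted p = 0.0363) and on Known, NIC and NNC reads (0.0445), but not with centring on the longest transcript of any type (0.0669). Timp2 and Timp3 had 3.20 to 1 reads in replicate 1 (2.02 to 5.23) and 1.20 to 1 in replicate 2 (0.748 to 1.94), on transcripts of 3709 and 4722 bases. These intervals did not overlap, and the difference of the ratios was not tested further.

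Ratios between the libraries followed transcript length over all genes and, more strongly, over the matrix genes, where length and group largely coincide. Over all 8394 genes, Spearman's rho between the log2 ratio and annotated length was -0.36, and over the 36 matrix genes it was -0.69; the genes share libraries and are not independent. Of the 21 matrix genes with transcripts of at least 4000 bases, 20 had a higher point value in replicate 2, with a median log2 ratio of -0.90. Of the 15 shorter ones, 13 had a higher point value in replicate 1, with a median of 0.62. All genes of at least 4000 bases had a median of -0.31 and 12.3% were called higher in replicate 2, against 0.11 and 4.69% for shorter genes. Toward replicate 1, 1.15% of the genes of at least 4000 bases and 6.18% of shorter genes were called. Each matrix gene called toward replicate 2 had at least 4000 bases, and each called toward replicate 1 was shorter.

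Length centring moved the calls only in part. After the median of each of 20 length bins was subtracted, 8 of the 10 calls remained, and Col4a2 (1.52-fold) and Lamc1 (1.82-fold) lost theirs (binomial adjusted p = 0.195 and 0.179). With the longest coding transcript as the length, Fmod and Timp2 were also called higher in replicate 1, which gave 5 calls in each direction. With the longest transcript of any type neither was called (binomial adjusted p = 0.0511 and 0.0669), which left 3 calls toward replicate 1. The share of all genes called was not taken for that setting. Under the first of these settings the background was 8.28% of all genes, made up of 5.27% toward replicate 2 and 3.01% toward replicate 1. Col3a1 remained 2.97-fold, Col1a1 2.70-fold, Col1a2 4.22-fold, Col4a1 2.00-fold and Lamb2 1.59-fold higher in replicate 2. Dcn remained 1.46-fold and Scx 2.33-fold higher in replicate 1. The point directions of Col5a1, Col6a1, Col6a2 and Lama4, none of them called, changed sign.

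**Figure D4:**
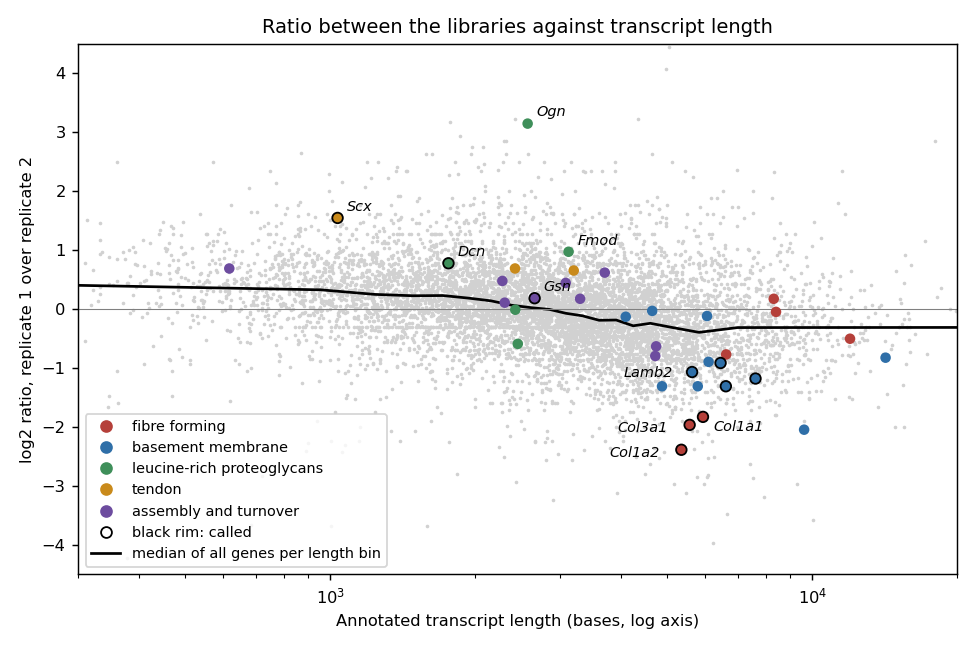
Log2 ratio of replicate 1 over replicate 2 against annotated transcript length in bases, on a log axis, for all tested genes (grey, with 0.5 reads added to each count; 49 of 8394 lie outside the axes) and the 36 matrix genes (coloured by group, black rim where called). The black line, the median of all genes in each of 20 length bins, goes from 0.43 in the shortest bin to -0.31 in the longest, and Col1a1, Col1a2 and Col3a1 lie below it while Scx, Dcn and Fmod lie above it.

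The share of reads that held the first intron differed among the collagens. It was taken over reads outside the Genomic class and used because the model of a Known read is the annotated transcript itself and does not show where the read began. For Col3a1 it was 88.3% in replicate 1 (Wilson 95% interval 77.8 to 94.2) and 85.2% in replicate 2 (79.4 to 89.5), and for Col1a1 70.0% (52.1 to 83.3) and 70.2% (59.8 to 79.0). For Col1a2, on a transcript of similar length, it was 0 of 9 and 0 of 38 reads, which over both allows a share of up to 6.38%. Introns 2 and 3 of Col1a2 were also in no read, and intron 4 in 1 read of each library. Exons 2 and 3 of Col1a2 have 11 and 15 bases, and whether the reads lack them or the alignment missed them was not tested, so the count of 0 is not a measure of how far the reads ran.

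For type IV collagen the share holding the first intron had the larger point value in replicate 2. It was 35.9% (22.7 to 51.6) and 57.1% (46.0 to 67.6) for Col4a1, and 29.2% (18.2 to 43.2) and 63.0% (49.6 to 74.6) for Col4a2. Lamb2 had 58.2% (48.8 to 67.0) and 61.3% (54.1 to 68.0), and Gsn 95.3% (94.4 to 96.1) and 91.5% (90.0 to 92.8). Only the exact annotated intron was counted. Lamb2 reads spliced from an upstream donor of exon 1, 11 in replicate 1 and 14 in replicate 2, were therefore left out, so its shares understate how many reads reached exon 1. The interval of Col4a2 in replicate 1 does not overlap that in replicate 2, whereas those of Col4a1 and Lamb2 do. This gap for Col4a2 depends on leaving out Genomic reads, none in replicate 1 and 19 in replicate 2. Over all its reads, starts within 100 bases of an annotated start were 31.3% (19.9 to 45.3) and 47.9% (36.9 to 59.2), and these intervals overlap.

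**Figure D5:**
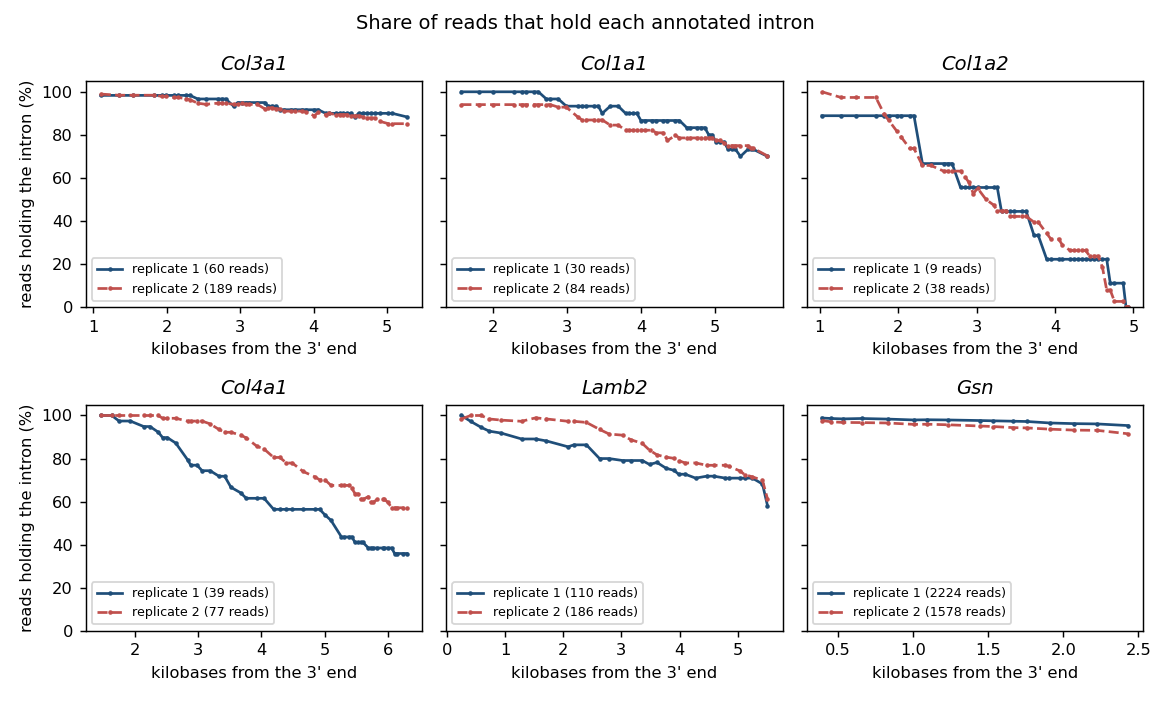
Share of reads, in percent, that hold each annotated intron of the most read coding transcript, against the intron's distance from the 3′ end in kilobases, for replicate 1 (solid) and replicate 2 (dashed). Col3a1 and Gsn stay above 80% to their first introns, Col1a2 falls to 0, and Col4a1 ends at 35.9% in replicate 1 and 57.1% in replicate 2.

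Known transcripts made up most matrix reads. Reads of Known models were 85.2% of matrix reads in replicate 1 and 78.1% in replicate 2, against 63.6% and 59.3% of all annotated reads; without Gsn the matrix shares were 68.7% and 62.9%. Incomplete splice matches were 23.0% and 26.4% of matrix reads without Gsn. Models starting within 100 bases of an annotated start made up 74.4% of the reads of the 40 other genes in replicate 1 (71.9 to 76.8) and 69.7% in replicate 2 (67.1 to 72.1). Over all annotated genes this share was higher, at 87.8% and 87.4%. In this count each Known model starts at the annotated base. By group over replicates 1 and 2, this share was 67.7% and 70.0% for fibre-forming genes, 55.6% and 60.1% for basement membrane genes, and 89.1% and 85.0% for proteoglycans.

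A single annotated isoform led nearly every matrix gene. Of the 19 genes with at least 20 spliced reads and a Known leading chain, each was led by the transcript that GENCODE lists first. Its share over both libraries was 100% for Fmod, Timp3 and Loxl1, and 91.8% for Col4a2. For Col1a1 (97.5%), Col3a1 (95.8%), Col4a1 (96.6%), Thbs4, Lum, Scx and Bgn it lay between 94.7% (Lamc1) and 97.9% (Timp2). It was lower for Serpinh1 (86.8%), Lamb2 (80.0%), Mmp2 (75.8%), Dcn (68.5%) and Sparc (54.5%).

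Dcn has alternative first exons, both untranslated in the annotation. Dcn-201, whose first exon lies at bases 97479609 to 97479789 of chromosome 10, was used by 155 of 236 reads in replicate 1 (65.7%, 59.4 to 71.4) and 80 of 106 in replicate 2 (75.5%, 66.5 to 82.7). The downstream first exon at bases 97482367 to 97482547 was used by the other 81 and 26 reads. Fisher's exact test of this split gave p = 0.0782, and a shift between starts was not detectable at this depth. Other annotated first exons of Dcn had no read.

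Lamb2 gave the most read unannotated chain of the 41 genes. In 25 reads, 11 in replicate 1 and 14 in replicate 2, exon 1 ended at base 108479969 of chromosome 9, which is 5 bases before the donor at base 108479974 used by the other 177 reads. The upstream donor is annotated in another transcript, Lamb2-207, but not with the remaining exons of this chain. Exon 1 is untranslated, so the coding sequence is the same. The last 20 bases of exon 1 (bases 108479955 to 108479974, plus strand) are shown with the 5 optional bases in capitals.
Lamb2 end of exon 1: cccagtacccacacgGTCGG

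Mmp2 had an unannotated chain in 3 reads of each library, which added an annotated intron of 461 bases near the 3′ end to the leading chain. Among the 20 genes examined for splicing, which leave out Col6a1, the only other coding exons absent from over 10% of at least 10 spanning reads were in Col5a1 and Hspg2. A 69-base exon of Col5a1 was included in 14 of 16 reads, 6 of 8 in replicate 1 and 8 of 8 in replicate 2, and a 192-base exon of the same gene, annotated in 1 transcript, had no read in its exact form. A 103-base exon of Hspg2 was included exactly in 7 of 10. Of 46 annotated internal coding exons of Fn1, 5 had 10 or more spanning reads, and its alternative exons could not be described at this depth.

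Col6a1 had no Known read among 32, and neither had Col1a2 among 47, nor Lama2, Hspg2 and Col6a3 among fewer. The leading Col6a1 chain, in 10 reads with 32 exons, lacked exons 6, 7 and 29 of the annotated transcript, of 21, 21 and 9 bases. Neither 21-base exon was in any of 15 spanning reads, which allows a share of up to 20%, and the 9-base exon was in none of 26, which allows up to 11.5%. The chain also extended exons 8 and 28: an intron of 360 bases stood in place of 3 annotated ones, and an intron of 779 bases in place of the other pair. The exons are shown, in capitals between 12 bases of their neighbours in the transcript, because they mark where the models depart from the annotation. They lie on the minus strand of chromosome 10, at bases 76721088 to 76721108 and 76721263 to 76721283 for the pair and 76712865 to 76712873 for the single exon. The files hold exon positions and not read bases, so whether the reads themselves lack these exons was not tested.
Col6a1 exons 6 and 7: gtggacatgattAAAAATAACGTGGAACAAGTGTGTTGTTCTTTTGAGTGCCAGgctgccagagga
Col6a1 exon 29: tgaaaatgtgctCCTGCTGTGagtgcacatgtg

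Other genes of the matrix pathway were examined in 7 lists. In these lists with 116 further genes, 65 were tested; the binomial test called 3 toward replicate 2 and none toward replicate 1, next to the 7.06% and 4.61% of all genes given above. At an unadjusted p below 0.05 it passed 8 of the 65, against 22.5% of all genes tested. The exact test of edgeR with dispersion called none of them, against 0.286% of all genes tested. The median log2 ratio of the 65 was -0.07. The 3 were Ctsb, a lysosomal protease with 532 and 562 reads (1.31-fold, 1.16 to 1.48), Ltbp4, which binds latent TGF-beta, with 99 and 131 (1.64-fold, 1.25 to 2.15), and Smad3, which carries the TGF-beta signal, with 59 and 88 (1.85-fold, 1.32 to 2.62). After length centring none of the 3 was called.

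Within these lists, each had a leading gene. Among collagen processing genes, P4hb, a subunit of prolyl hydroxylase, had 302 and 210 reads, and all 14 tested genes of that list, which make and secrete collagen, were not called. The lead of the other lists was taken by Smoc2 among glycoproteins (139 and 121 reads), Podn among proteoglycans (17 and 18), Sgca among receptors and their partners (193 and 139), Mstn among growth factors (140 and 77) and Col5a3 among other collagens (10 and 16). Ctsb led the proteases and inhibitors. The genes with no read in either library numbered 16, among them Col2a1, Acan, Vcan, Timp1 and Loxl4.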

How the data were processed

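RNA of 2 gastrocnemius libraries was read as long reads; the labels name the assembly mm10, and the deposited models combine GENCODE M21 with models named by TALON. Per the file headers, the authors' tables give unnormalized read counts for each transcript model, with no model at 0. Which aligner, filters and versions made them: not given in the sources used here. Each model has a class: Known (annotated chain), ISM (part of one), NIC (known splice sites newly combined), NNC (a splice site outside the annotation) or Genomic. "Spliced reads" above means Known, NIC and NNC.

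The members and lists were chosen with earlier results of these data known. Counts of all models of a gene were summed, and CPM was taken over annotated endogenous reads without the spike-ins. Counts were compared by a 2-sided exact binomial test with TMM sizes (edgeR 4.0.16, R 4.3.3) in genes with at least 10 reads; no quasi-likelihood fit is possible with 1 library a side, so edgeR's exact test with the common dispersion was the alternative, next to DESeq2 1.42.0 size factors, total counts, other read filters and length centring. The leading intron chain was compared by Fisher's exact test (scipy 1.17.1) where each library had at least 20 spliced reads. Annotated length is that of the longest coding transcript. The binomial test and Fisher's test were checked on simulated counts with counting error only. That check does not show how often they call genes under the scatter and length trend of these libraries. The alternative exact test of edgeR was not checked, and its dispersion was estimated from the same libraries that it compared. Named were all 41 members, called genes and the most abundant gene of each other list, the leading isoform of members with at least 20 spliced reads, exons absent from over 10% of at least 10 spanning reads in 20 genes, and the most read unannotated chain. The Mmp2, Col6a1 and Col1a2 details, the ratios between paired genes and the marker sums without the most read gene were chosen after their values were seen. Sequences are from RefSeq (GRCm38.p6) and GENCODE M21.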

Additional observations from a re-analysis of the deposited data

Results flagged for a closer look

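Reads outside the annotated genes lay against Lama2: unannotated models on the strand opposite to the gene held 6 reads in replicate 1, above the 3 reads that a count of 0 allows, and 1 read in replicate 2. They were not used in any comparison above.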

How the results depend on the processing

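With the common dispersion, calls fell to 0 higher in replicate 1 and 0 higher in replicate 2 among the members, and to 0 among the other matrix genes. Length centring gave 5 members higher in replicate 1; of the other genes it left 0 higher in replicate 2 and gave 1 higher in replicate 1, and 0 were higher in replicate 2 with the longest transcript of any type as the length (this alternative was chosen after seeing the data). Point directions of members that were not called reversed as follows. With total counts, Col5a1 (0.0668), Col6a2 (0.0838) and Bgn (0.10) reversed. With length centring, Col5a1 (0.26), Col6a1 (0.15), Col6a2 (0.21) and Lama4 (0.28) did, and with the longest transcript of any type the values were 0.26, 0.0550, 0.22 and 0.19. With Known, NIC and NNC reads, Col6a1 (0.81), Col6a2 (0.70), Bgn (0.28) and Sparc (-9.51e-05) did, and with Known reads Col6a2 (0.85), Bgn (0.14) and Sparc (-0.0324); these are log2 ratios. Lamb1 was called in Known reads (-2.91) and in Known, NIC and NNC reads (-3.001), with binomial adjusted p = 0.0240 and 0.0139. These ratios rest on 2 such reads in replicate 1. Both read filters left 8 of the 10 calls, without Lamc1 and with Col1a2 not tested. At least 50 reads left 9, with Col1a2 not tested. The share of all genes called was not taken under these filters. Without Gsn, also added later, the turnover group fell to 274 CPM and all members to 1210 CPM. Known reads alone raised the Gsn-201 share to 99.8%.

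Leaving out either library gave sums of 119 to 356 CPM for fibre-forming genes, 264 to 493 for basement membrane, 177 to 313 for proteoglycans, 48.2 to 102 for tendon, 1861 to 2294 for assembly and turnover and 2935 to 3092 for all, and a Gsn-201 share of 97.5% to 98.3%. DESeq2 size factors changed no call among the members. No paired analysis was possible because the libraries are replicates of 1 group. Counts under about 20 reads limit most collagen V, VI, laminin alpha and tendon values.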
